A study of Homo sapiens with 3 samples.

Results

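HEK-293T is a human embryonic kidney line that carries the SV40 large T antigen, and it is widely used to study transfected receptors. The genes described here are the machinery that such receptors act through: the alpha, beta and gamma subunits of heterotrimeric G proteins and the adenylyl cyclases. The members were a list of 40 genes, 30 of G protein subunits and 10 of cyclases, and each was found through the gene symbols of the array platform. They were measured by 106 probe sets, all listed for 1 gene, out of 19775 genes and 54675 probe sets on the array.

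The data were 3 Affymetrix U133 Plus 2.0 arrays of total RNA from untreated cultures of HEK-293T (CRL-11268), grown in DMEM with fetal bovine serum. A low-seeded culture (375K cells per dish, RNA integrity number 9.6) and a high-seeded culture (750K cells, RNA integrity number 10.0) were harvested 48 h past seeding, and a culture of 1000K cells (RNA integrity number 9.5) was harvested at 24 h. The labels give all 3 cultures the same genetic modification, an inserted gene for a temperature-sensitive SV40 T antigen, and the values describe this transformed line and not kidney tissue. The labels name no passage or culture day, so the spread between arrays may be partly technical.

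A G protein alpha subunit binds GDP at rest and exchanges it for GTP when a receptor is activated. It then separates from the beta-gamma dimer, and both parts act on effectors until the alpha subunit hydrolyses its GTP. Alpha subunits of the s class stimulate the membrane adenylyl cyclases, which make cyclic AMP (cAMP), and those of the i class inhibit several of them. Alpha subunits of the q class activate phospholipase C beta, and those of the 12 and 13 class activate exchange factors of the GTPase RhoA.

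The deposited values are MAS5 signals, intensities on a linear scale. The background was read from 273 probe sets of genes that kidney cells are not known to use, and their 95th percentile on an array was taken as its threshold. Of the 273, 127 were probe sets of olfactory and taste receptors. Probe sets over the threshold of each of the 3 arrays are called above background here. The threshold was 91.6 on the low-seeded 48 h array, 108.0 on the high-seeded 48 h array and 82.4 on the 24 h array. A gene counts as above background through any of its probe sets. Probe sets differ in how brightly they bind, so a signal is compared below only with the same probe set on another array and with the threshold. Wherever 2 values are given for 48 h, the low-seeded culture is the first. The RNA is of whole cultures, so fewer cells with a transcript and less of it per cell cannot be told apart.

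Of the 40 members, 25 were above background, which is 62.5% against 52.4% of all measured genes. Of their 106 probe sets, 61 were above background, which is 57.5% against 45.8% of all probe sets listed for 1 gene. A member had 2.65 probe sets on average and a measured gene 2.08, so a member had more chances of a call. The share differed by class: 11 of the 15 alpha subunit genes (73.3%), 4 of 5 beta, 6 of 10 gamma and 4 of 10 cyclase genes (40%) were above background. Only 5 of the 22 cyclase probe sets (22.7%) were above, a lower share than that of all probe sets. The signals of the 61 probe sets varied little between arrays, with a median SD of 0.15 on the log2 scale over the 3 arrays. In 50 of them the highest signal was at most 1.5 times the lowest. Over all above-background probe sets, pairs of arrays differed by a median of 0.157 to 0.189 on the log2 scale. The SD and the 1.5-fold count were not taken over all of these, so neither is read as a trait of the members.

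**Figure D1:**
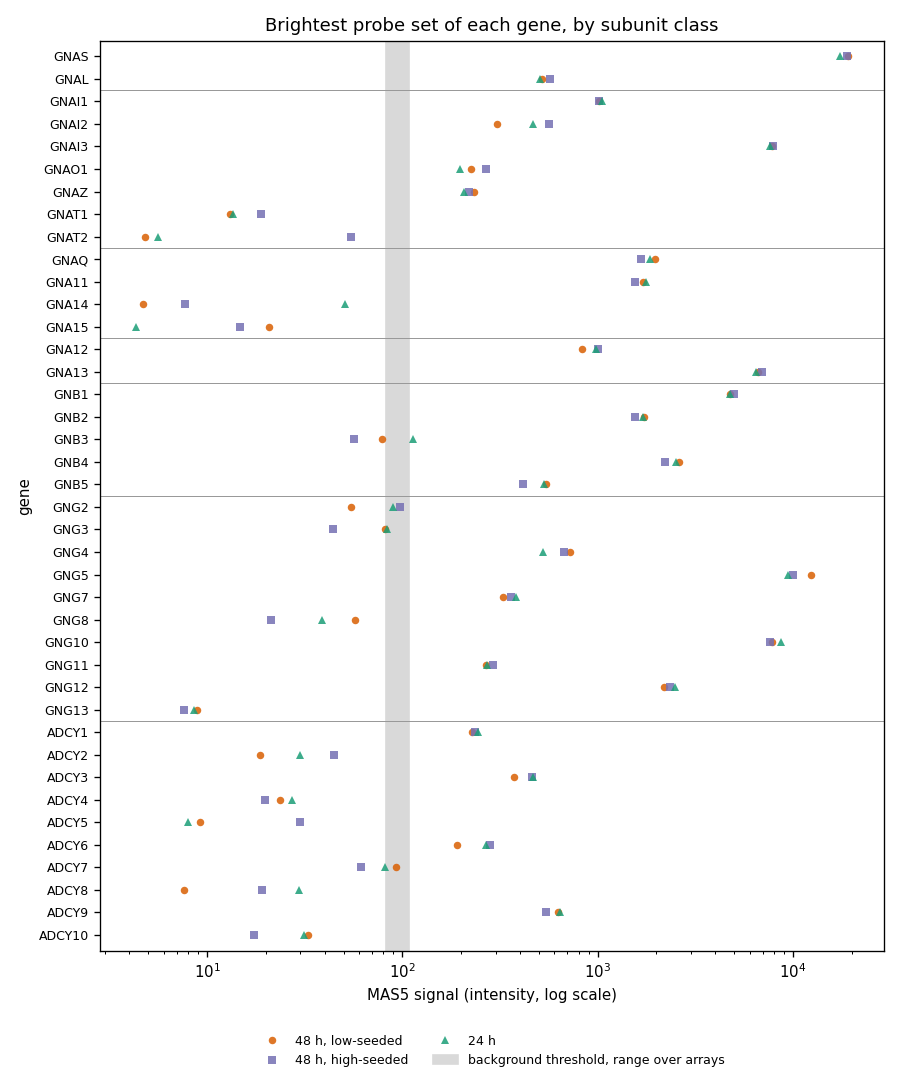
MAS5 signal (intensity, log axis) of the brightest probe set of each of the 40 genes, 1 symbol per array, with lines between the subunit classes and a grey band for the range of the background thresholds, 82.4 to 108.0. The 25 genes above background lie to the right of the band on every array, with little spread, and the other 15 lie to its left or scatter across it.

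The alpha subunits of the s class were both above background. GNAS, which encodes the ubiquitous stimulatory alpha subunit, had signals of 19200.2 and 18891 at 48 h and 17387 at 24 h in its brightest probe set. Relative to the threshold of its array it was lowest on the high-seeded 48 h array, at 175 times. Of the 12 probe sets of GNAS, 9 were above background, 6 of them with means of 2368 or more and 3 with means of 322, 252 and 238, and the other 3 averaged 58.4, 30.0 and 20.3. The gene has several promoters and first exons, and which transcript each probe set reads was not examined. GNAL encodes the olfactory alpha subunit, which couples receptors to cyclase in the olfactory epithelium and the striatum. Its brightest probe set had 519 and 567 at 48 h and 506 at 24 h, and 3 of its 4 probe sets were above background. The remaining probe set of GNAL, with 183 and 106 at 48 h and 139 at 24 h, missed the call on the high-seeded 48 h array alone, at 0.978 of its threshold.

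In the inhibitory class, 5 of 7 genes were above background, and the transducins were not. All 3 genes of the i type, whose products inhibit adenylyl cyclase, were called. GNAI1 had signals of 1021 and 1016 at 48 h and 1048 at 24 h, a range of 1.03-fold. GNAI3 had 7801 and 7949 at 48 h and 7640.4 at 24 h, and its other probe sets averaged 3078 and 885. GNAI2 differed more between arrays than these, with 305 and 564 at 48 h and 466 at 24 h in its only probe set. The 24 h signal lay between the 2 signals of 48 h, and a cause of the spread was not tested.

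GNAZ encodes an inhibitory alpha subunit that, unlike the others of its class, is not a substrate of pertussis toxin. It had 234 and 219 at 48 h and 208 at 24 h, about 2.02 times the threshold where it was closest. GNAO1 encodes the alpha subunit that is abundant in neurons. Its call rested on 1 of 4 probe sets, with 225 and 269 at 48 h and 197 at 24 h, and the other 3 averaged 45.5, 17.5 and 12.4. GNAT1 and GNAT2 encode the transducins of rod and cone photoreceptors. The brighter probe set of GNAT1 had 13.1 and 18.9 at 48 h and 13.5 at 24 h, below the threshold on every array. GNAT2 had 4.8 and 54.7 at 48 h and 5.57 at 24 h, a scatter of 11.4-fold that stayed below the thresholds.

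Within the q class the genes separated completely. GNAQ and GNA11, the widely expressed activators of phospholipase C beta, were above background in all 5 and all 6 of their probe sets. GNAQ had 1971 and 1659.5 at 48 h and 1856 at 24 h in its brightest probe set. GNA11 had 1717 and 1545 at 48 h and 1771 at 24 h, and another of its probe sets, with 816 and 798 at 48 h and 811 at 24 h, varied by only 1.02-fold. GNA14 and GNA15, of which GNA15 is known from blood cells, were below the threshold in every probe set on every array. GNA14 had 4.69 and 7.74 at 48 h and 51.1 at 24 h, and GNA15 had 20.8 and 14.7 at 48 h and 4.32 at 24 h. Both genes of the class that acts on RhoA were above background in all their probe sets. GNA12 had 830.4 and 999 at 48 h and 980.3 at 24 h, and GNA13 had 6595 and 6988 at 48 h and 6462 at 24 h.

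**Figure D2:**
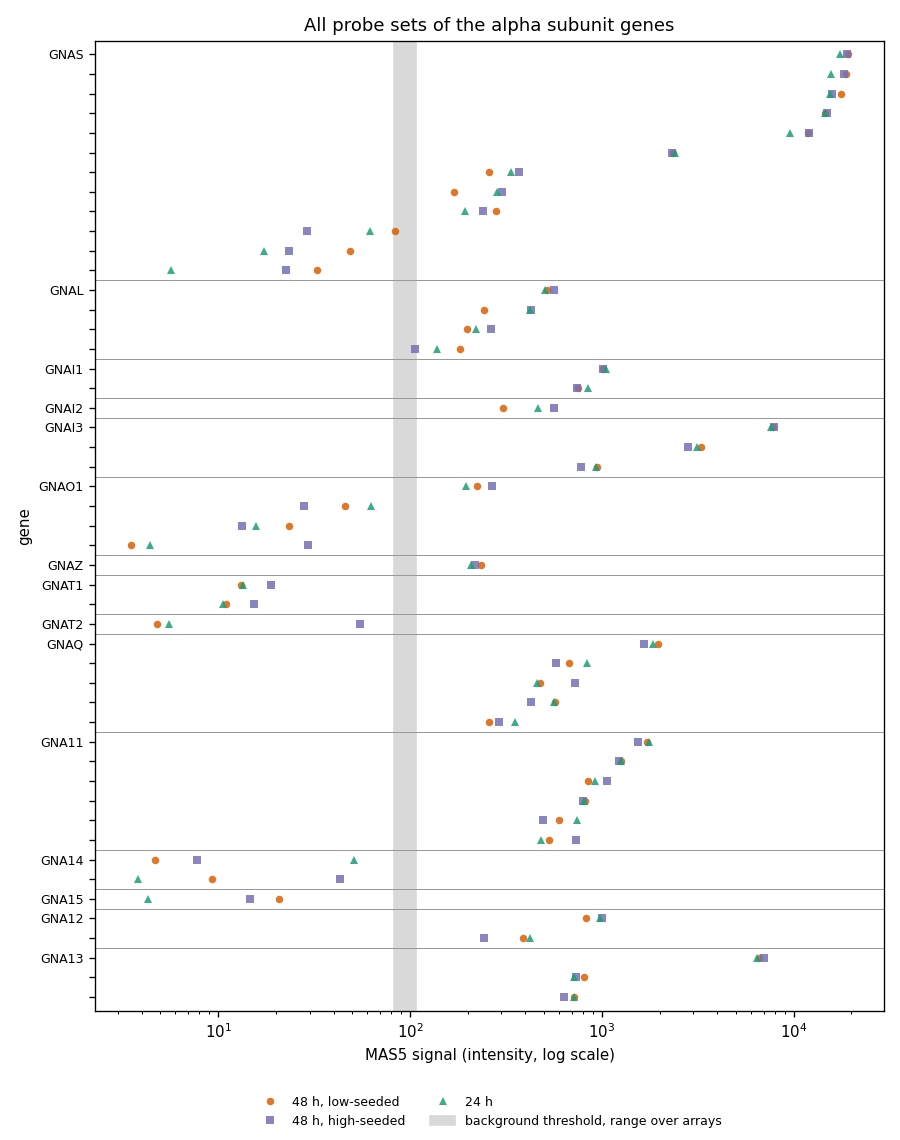
MAS5 signal (intensity, log axis) of every probe set of the 15 alpha subunit genes, 1 symbol per array, with the gene named at its brightest probe set and a grey band for the background thresholds (82.4 to 108.0). All probe sets of GNAQ and GNA11 lie right of the band and all of GNA14, GNA15, GNAT1 and GNAT2 left of it, while GNAS and GNAO1 have probe sets on both sides.

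Beta and gamma subunits form a dimer that holds the alpha subunit at the membrane and acts on channels and enzymes of its own. Of the 5 beta genes, 4 were above background. GNB1 had 4748 and 5019 at 48 h and 4749.9 at 24 h, and all 3 of its probe sets were called. GNB2, with 1 probe set, had 1733 and 1558 at 48 h and 1704 at 24 h. GNB4 had 2606 and 2208 at 48 h and 2516 at 24 h in its brightest probe set. These 3 genes had ranges of at most 1.18-fold in those probe sets. GNB5 encodes the divergent beta subunit that pairs with a subfamily of RGS proteins. It had 546 and 414 at 48 h and 534 at 24 h, with 3 of 5 probe sets above background. GNB3, the beta subunit of cone transducin, was not above background, with 78.2 and 56.5 at 48 h and 113 at 24 h. It exceeded the threshold on the 24 h array only.

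Gamma subunits carry the lipid anchor of the dimer, and 6 of the 10 genes were above background. GNG5 had 12453 and 10042 at 48 h and 9436 at 24 h, a range of 1.32-fold. GNG10 had 7853 and 7609.8 at 48 h and 8653 at 24 h. GNG12 had 2179 and 2338 at 48 h and 2494 at 24 h, and all 3 of its probe sets were called. In all 3 genes the brightest probe set stood at least 21.6 times over the threshold. The other called gamma genes were nearer to it. GNG4 had 719 and 676 at 48 h and 523 at 24 h, GNG7 had 328 and 361 at 48 h and 384 at 24 h, and GNG11 had 269 and 290.4 at 48 h and 271 at 24 h. GNG11 is the gamma subunit of this list that carries a farnesyl group in place of geranylgeranyl, and its call rested on 1 of 2 probe sets.

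The gamma genes without a call were GNG2, GNG3, GNG8 and GNG13. GNG2 lay close to the threshold in 2 of its 4 probe sets, with 54.5 and 97 at 48 h and 89.6 at 24 h in the one and 50 and 69.6 at 48 h and 114 at 24 h in the other. Each passed on the 24 h array alone. GNG3, a brain subunit, had 81.9 and 44 at 48 h and 83.8 at 24 h. GNG8 and GNG13 are known from olfactory and taste cells. GNG8 had 57.3 and 21.3 at 48 h and 38.7 at 24 h, and GNG13 had 8.9 and 7.65 at 48 h and 8.53 at 24 h, so neither reached a threshold.

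The adenylyl cyclases can be grouped by what regulates them besides the stimulatory alpha subunit. Of the cyclases stimulated by calcium and calmodulin, ADCY1 and ADCY3 were above background and ADCY8 was not. ADCY3, also the cyclase of olfactory neurons, had 374 and 460.1 at 48 h and 468 at 24 h, and both of its probe sets were called. ADCY1, known from neurons, was called through 1 of 5 probe sets, with 226 and 236 at 48 h and 245 at 24 h, while the others averaged 12.3 to 37.4. ADCY8 had 7.59 and 19 at 48 h and 29.6 at 24 h. Of the pair inhibited by calcium and by the i class, ADCY6 was above background with 191 and 280.3 at 48 h and 267 at 24 h. ADCY5 was not, with 9.22 and 30.0 at 48 h and 7.96 at 24 h.

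None of the cyclases that beta-gamma dimers stimulate (ADCY2, ADCY4 and ADCY7) was above background. ADCY7 was the nearest, with 92.9 and 61.4 at 48 h and 81.9 at 24 h, over the threshold on the low-seeded 48 h array only. ADCY2 had 18.7 and 44.5 at 48 h and 30.0 at 24 h, and ADCY4 had 23.7 and 19.8 at 48 h and 27.2 at 24 h. ADCY9, a broadly expressed cyclase that forskolin stimulates poorly, was above background through 1 of 3 probe sets, with 623 and 546 at 48 h and 644 at 24 h. A further probe set of ADCY9, with 163 and 126 at 48 h, fell short at 24 h with 78.9, which is 0.958 of the threshold. ADCY10 is the soluble cyclase, which bicarbonate activates and G proteins do not. It had 32.7 and 17.3 at 48 h and 31.5 at 24 h.

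**Figure D3:**
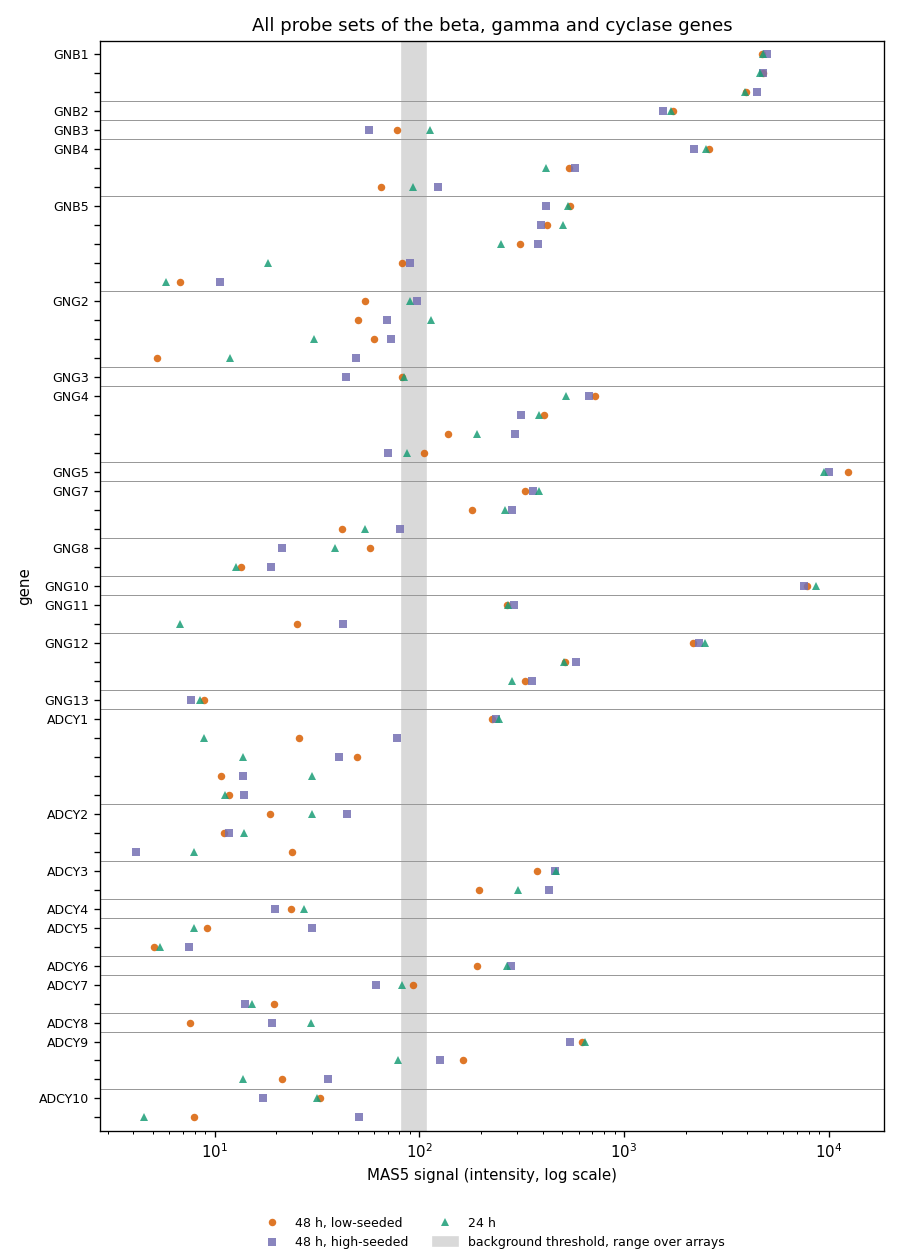
MAS5 signal (intensity, log axis) of every probe set of the beta, gamma and adenylyl cyclase genes, 1 symbol per array, with the gene named at its brightest probe set and a grey band for the background thresholds (82.4 to 108.0). GNB1, GNG5, GNG10 and GNG12 lie far to the right, and of the 22 cyclase probe sets only 5, of ADCY1, ADCY3, ADCY6 and ADCY9, lie right of the band on all arrays.

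The 15 members that were not above background had 26 probe sets, whose signals lay between 3.82 and 114 with a median of 19. On 1 array, 5 of these probe sets passed the threshold (GNB3, GNG3, ADCY7 and the 2 of GNG2). At such signals the arrays do not separate low expression from none. All member probe sets without a call, those of called members included, had a median SD of 0.6 on the log2 scale. Of the 19 called members with several probe sets, 10 also had probe sets without a call, and 6 called members had 1 probe set only.

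Several of these genes lie side by side in the genome, and the neighbours differed. In the gene order of RefSeq, GNAI3 and GNAT2 on chromosome 1, GNAQ and GNA14 on chromosome 9, and GNA11 and GNA15 on chromosome 19 had no protein-coding gene between them. GNAI2 and GNAT1 on chromosome 3 had 1 between them. In all 4 pairs the gene named first was above background and its neighbour was not. The same held for GNAI1 and GNG11 and their neighbours outside the list. GNAT3, which encodes the taste transducin gustducin and lies next to GNAI1, had 13.3 and 5.61 at 48 h and 15.5 at 24 h. GNGT1, the gamma subunit of rod transducin, lies next to GNG11 and had 37.4 and 67.7 at 48 h and 63.3 at 24 h. These 6 pairs were picked out after their values had been seen, and they are a description of where the genes lie.

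The start regions of the genes were read from RefSeq (GRCh38.p14), in windows of 300 bases, 250 before and 50 after the start, which existed for 33 of the 40 members. The 21 windows of members above background held a median of 35 CG dinucleotides (4 to 53), and the 12 windows of members not above held 13.5 (1 to 50). The same contrast was present over all genes, with medians of 27 in 8637 genes above background and 9 in 6747 genes not above. Single members went the other way: the GNAI2 window had 4 and the GNAS window 10, while that of ADCY2, which was not above background, had 50. The windows are of 1 annotated start per gene, and GNAS for instance has several.

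**Figure D4:**
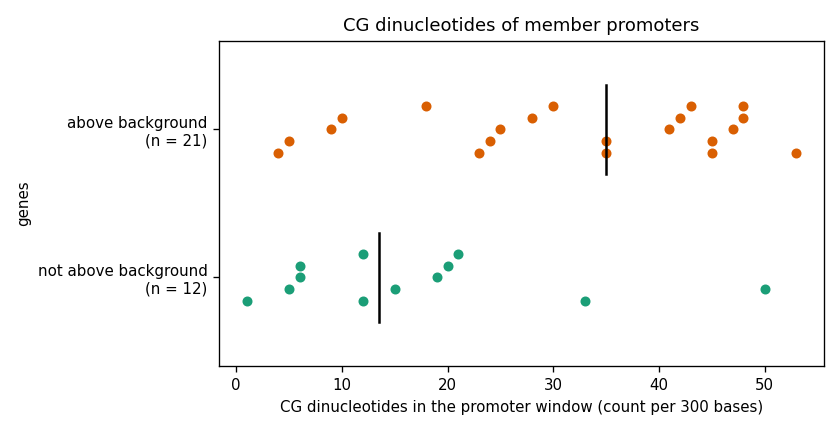
CG dinucleotides per 300-base promoter window (count) in the 21 members above background and the 12 not above, 1 point per gene, with a vertical bar at the median. The medians are 35 and 13.5, and the ranges overlap, from 4 to 53 and from 1 to 50.

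The windows were also searched for the cAMP response element, the palindrome TGACGTCA that CREB binds, since CREB is a target of the cAMP that these cyclases make. It was found in 2 of 33 member windows, of GNAO1 and GNG7, both above background. Over all 27305 windows 1.98% held it, and among genes above background 3.58% did. The shorter TGACG was searched together with its reverse complement CGTCA, which the full element also contains. It was in 7 windows of members above background (33.3%), against 36.1% of all genes above background. Of the windows of members not above, 3 held it (25%), against 21.5% of all genes not above. A match is a run of letters and not a site shown to be bound. The stretches around the 2 full elements are printed 5′ to 3′ on the strand of the gene, with the element in capitals. That of GNAO1 is on the plus strand at chr16:56191285-56191404 and its element begins 148 bases before the start. That of GNG7 is on the minus strand at chr19:2702825-2702944 and its element begins 241 bases before the start.
GNAO1: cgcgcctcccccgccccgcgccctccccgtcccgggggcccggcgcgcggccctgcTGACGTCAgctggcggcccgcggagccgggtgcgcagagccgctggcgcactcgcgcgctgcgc
GNG7: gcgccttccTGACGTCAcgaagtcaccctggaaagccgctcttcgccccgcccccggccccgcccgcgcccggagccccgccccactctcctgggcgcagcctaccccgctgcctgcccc

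Genes that act beside the members were counted in the same way. Of 16 measured effectors of cAMP, 14 (87.5%) were above background, among them CREB1, with 2268 and 2383 at 48 h and 2912 at 24 h. The 2 without a call were PRKACG, a catalytic subunit of protein kinase A known from testis, and RAPGEF3, the exchange factor EPAC. RAPGEF3 had 12.5 and 15.2 at 48 h and 74 at 24 h. CREB1 was called in all 7 of its probe sets and CREM in 4 of 6. PRKACA, PRKAR1B, CRTC1, CRTC3 and PKIB were called through 1 of 2 each. The call of PRKAR1B came from its dimmer probe set, as the brightest had 54.6 and 248 at 48 h and 235 at 24 h. Of 14 phosphodiesterases that degrade cAMP, 5 (35.7%) were above background, a lower share than the 52.4% of all genes. They were PDE3B, PDE4D, PDE7A, PDE8A and PDE10A. PDE8A had 874 and 876 at 48 h and 1008 at 24 h, and PDE4D, at 119 and 152 at 48 h and 135 at 24 h, was nearer to the threshold. PDE4D was called through 1 of 6 probe sets. Without the high-seeded 48 h array 7 of the 14 were above background, so the lower share depended on that array. PDE4A had 229.9 and 106 at 48 h and 165 at 24 h in its brightest probe set and fell short there only.

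Among partners of the alpha subunits, 8 of 10 effectors of the q and the 12 and 13 classes (80%) were above background. Some of these genes had many probe sets and so more chances of a call. ARHGEF12 was called through 3 of 13 probe sets, AKAP13 through 4 of 11 and TRIO through 2 of 9. All probe sets of PLCB3, PLCB4 and ARHGEF25 were called. PLCB2, the phospholipase C beta of blood and taste cells, and ARHGEF1 were not. PLCB2 had 9.92 and 31.7 at 48 h and 52.8 at 24 h, while ARHGEF1 had 154 and 71.5 at 48 h and 171 at 24 h and fell short on the high-seeded 48 h array only. Of 7 receptor kinases and arrestins, 6 (85.7%) were above background and the exception was GRK7, the cone kinase. Here too the calls rested on a part of the probe sets in most genes. GRK4 and GRK5 were called through 1 of 4 probe sets each and ARRB1 through 3 of 7, while GRK3 was called in all 3. Of 8 measured exchange factors and chaperones, 5 (62.5%) were, and GPSM3, PCP2 and the photoreceptor gene PDC were not. RGS proteins speed the GTP hydrolysis of alpha subunits, and 10 of 19 (52.6%) were above background, a share close to that of all genes. RGS10, RGS14, RGS16 and RGS17 were among those called, and RGS1, RGS11, RGS12 and RGS13 among those not. Of the RGS proteins that pair with the GNB5 product, looked up after the values had been seen, RGS7 was above background with 140.1 and 138 at 48 h and 175 at 24 h. RGS6, RGS9 and RGS11 were not.

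Markers of cell types in which some members are known to work were counted as well. None of 12 measured photoreceptor markers and none of 5 olfactory and taste markers (PLCB2 among them) was above background. The threshold was itself set in part by olfactory and taste receptors, so the count for such markers carries little weight. Of the members known from olfactory or taste cells, GNAL and ADCY3 were called and GNG8 and GNG13 were not. Of 7 kidney progenitor genes, 5 were above background (71.4%, against 52.4% of all measured genes), and LHX1 and PAX2 were not. The brightest probe set of PAX2 had 85.5 and 146 at 48 h and 129 at 24 h, and fell short on the low-seeded 48 h array only. PAX8 was called through 1 of 8 probe sets and EYA1 and WT1 through 1 of 2 each, while SIX2 and SALL1 were called in all of theirs. LRP2 was the only 1 of 6 markers of mature renal cells with a call. None of 5 endothelial and none of 5 blood markers, 1 of 6 fibroblast markers (COL1A1), 4 of 5 epithelial markers and 4 of 7 neuronal markers (INA, NEFL, NEFM and SYT1) were above background. GNAO1 and ADCY1, known from neurons, were called, and the brain subunit GNG3 was not.

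The 48 h arrays were compared with the 24 h array by limma on log2(signal + 19.9). The median signal of the background probe sets was added so that values near 0 have a log, and differences of low signals are understated. The fit had 1 residual degree of freedom per probe set, the lone 24 h array was assumed to vary like the 48 h pair, and the cultures also differed in seeding, which cannot be told apart from harvest time. No member was called at an adjusted p under 0.05. The test covered 63 probe sets of the 25 members above background. Over all 23625 probe sets, 11 (0.0466%) were called higher and 44 (0.186%) lower at 48 h, and 7 and 7 after the arrays were scaled to equal medians. Without adjustment, 3 member probe sets (4.76%) passed 0.05, against 9.05% of all tested.

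Both 48 h signals exceeded the 24 h signal in 23 member probe sets (36.5%, against 35.2% of all tested), and both were below it in 15 (23.8%, against 34.9%). In the other 25 the 24 h signal lay between or equal to the 48 h signals. The median difference of the members was -0.04 on the log2 scale, 49 of 63 lay within 0.3 of 0, and the class medians ran from -0.11 (cyclases) to 0.04. The high-seeded and the low-seeded 48 h arrays differed by a median of 0.17 in size in the same probe sets, and the 48 h mean differed from 24 h by a median of 0.12. In 39 of the 63 probe sets the ratio between the 48 h arrays was the larger. That ratio sets a single array against another, and the difference uses a mean, so the measures are not equally precise. The 48 h cultures also differed in seeding. The shares over all tested probe sets were not counted, so neither the 49 nor the 39 are read as a trait of the members.

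The smallest adjusted p of a member (limma, 0.212) belonged to a GNAS probe set with 11828 and 12063 at 48 h and 9545 at 24 h, a difference of 0.32 ± 0.09 (SE). Another bright GNAS probe set had 18705 and 18299 at 48 h and 15598 at 24 h, and a difference of 0.25 with an adjusted p of 0.414. GNG5 followed, with a difference of 0.24 ± 0.11 (SE) and an adjusted p of 0.538. In each of these 3 probe sets both 48 h signals were above the 24 h signal. The other GNAS probe sets with means of 2368 or more differed less. The difference was 0.13 in the brightest, and 0.10, 0.02 and -0.05 in the rest.

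The largest differences in size were no better supported. In the direction of 48 h, a dim ADCY9 probe set (163 and 126 at 48 h, 78.9 at 24 h) differed by 0.72 ± 0.47 (SE, adjusted p = 0.709). GNB5 (0.43), GNG4 (0.40), a GNAS probe set (0.40) and GNB4 (0.40) came next, each with an adjusted p of 0.576 or more in limma. In the direction of 24 h, a GNA11 probe set had 602 and 494 at 48 h and 747 at 24 h, a difference of -0.44 ± 0.21 (SE, adjusted p = 0.554). GNAQ had 675 and 580.2 at 48 h and 833 at 24 h in 1 probe set, a difference of -0.40. For both genes another probe set differed the other way, by 0.36 in GNA11 and by 0.34 in GNAQ. Among the genes higher at 48 h, the brightest probe sets of ADCY9 (-0.14), GNB5 (-0.16) and GNB4 (-0.07) also went the other way. In GNG4 another probe set did (-0.10). GNA12 (-0.43), GNAL (-0.37) and a GNAS probe set (-0.31) completed the list, and the value of each depended on which 48 h array was used. The GNA12 difference was -0.75 without the low-seeded array and -0.12 without the high-seeded one. For GNAL these values were -0.74 without the high-seeded array and 0.01 without the low-seeded one, and for the GNAS probe set -0.69 and 0.07 in the same order. In GNAL and GNAS the 24 h signal lay between those of 48 h. The brightest probe set of GNAL differed the other way, by 0.10, and that of GNA12 the same way, by -0.10. No gene of the pathway lists was called between 48 h and 24 h.

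**Figure D5:**
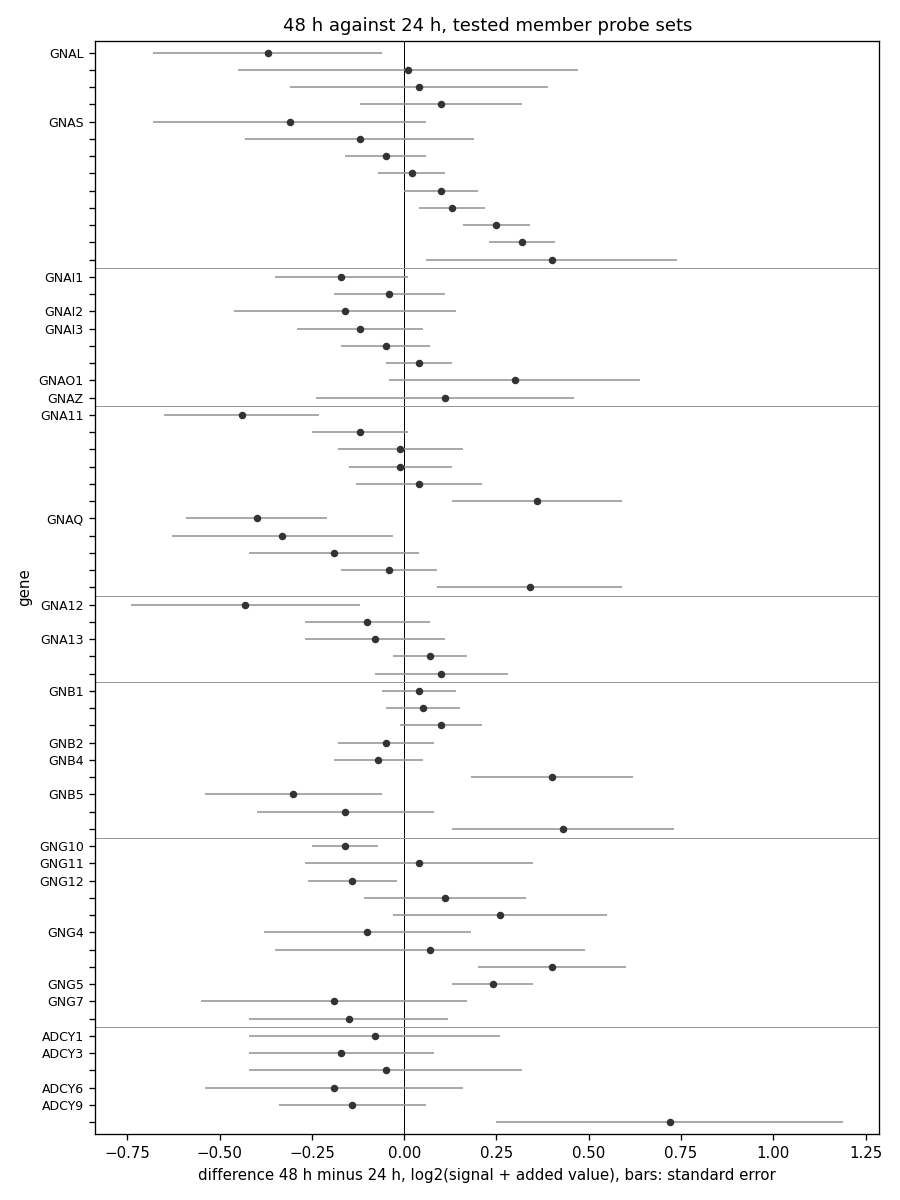
Difference 48 h minus 24 h on the log2(signal + 19.9) scale for the 63 tested member probe sets, grouped by gene and class, with bars of 1 standard error from limma. Most points lie within 0.3 of 0, and ADCY9 at 0.72 has the widest bar, 0.47. Probe sets of 1 gene fall on both sides in several genes, among them GNAS, GNA11, GNAQ and GNB5.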

How the data were processed

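Total RNA of 3 untreated HEK-293T cultures was hybridised by the authors to U133 Plus 2.0 arrays. The deposited values are MAS5 signals, an intensity on a linear scale (GCOS 1.0 in the submitters' processing notes), with a trimmed mean of 500.1 on every array. Signals were used as deposited, and absent/present calls were not used here. Symbols came from the platform annotation, updated through gene IDs to RefSeq (41043 of 41097 probe sets listed for 1 gene). Probe sets marked as able to bind related transcripts were kept, and pseudogenes exist for GNAI2, GNAQ, GNA13, GNG5, GNG10 and ADCY10, a readthrough for GNG10, and antisense genes for GNAS, GNAO1, GNA14 and GNG12. Signal from such transcripts could not be separated.

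Background was taken from 273 probe sets (193 genes), of which 1 passed the threshold on all arrays. Above-background signals of array pairs correlated at 0.983 to 0.986 on the log2 scale across probe sets, and no 2 arrays held identical values. Arrays were compared with limma 3.58.1 in R 4.3.3 (moderated test with a mean-variance trend, probe sets with a mean log2 signal above that of 94.0, Benjamini-Hochberg adjustment). The number of arrays limits the precision. The procedure was tested on simulated data, where it called more unchanged probe sets than its nominal rate.

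All members were accounted for, with the brightest probe set of each called member and the 5 largest differences in each direction. Of other lists, the smaller side was named, or the alphabetically first 4 on each side. Members and lists were chosen with earlier results of these data known.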

Additional observations from a re-analysis of the deposited data

How the results depend on the processing

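The same 25 members were above background when any array was left out. Without probe sets marked _s_at, _x_at or _a_at, 34 member probe sets in place of 61 were above background and 2 beta genes in place of 4, and 20 members were called, without GNB1, GNB2, GNG5, GNG7 and ADCY6. When more than 50% of probe sets per gene were required, 2 cyclases in place of 4 were called and 21 members, without GNAO1, GNG11, ADCY1 and ADCY9. No member was called between 48 h and 24 h under any alternative that gives a test, where the smallest adjusted p of any member ranged from 0.114 (quantile normalization) to 1 (equal medians). Over all probe sets, 55 calls became 96 with no filter on low signals (20 higher and 76 lower at 48 h), 14 with arrays scaled to equal medians (7 higher, 7 lower) and 0 with limma without a mean-variance trend, where 1369 passed an unadjusted 0.05. For the 5 largest differences in each direction alone, the adjusted p ranged from 0.539 to 1 over the alternatives. The other 104 counts (of members, probe sets, classes, pathway genes and calls) stayed within 1.5 times. Leaving out a 48 h array leaves 1 array against 1, which has no test. The differences of GNA12, GNAL and a GNAS probe set then moved by over 1.5 times, to between -0.75 and 0.07, and those of GNAL and GNAS changed sign without the low-seeded array. No paired analysis was possible because the replicate numbers follow accession order and 24 h has 1 array. Levels under about 100 cannot be told from background.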
